A study of Rattus norvegicus with 6 samples.

Results

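Splicing regulators are RNA-binding proteins that decide which exons of a pre-mRNA are joined. The families described here are the SR proteins (Srsf), the heterogeneous nuclear ribonucleoproteins (Hnrnp), the polypyrimidine tract binding proteins (Ptbp), the muscleblind-like proteins (Mbnl), the CELF proteins (Celf), the RBFOX proteins (Rbfox) and the epithelial splicing regulators (Esrp). Their genes were taken by symbol, as every row of the deposited gene table whose name began with 1 of these 7 prefixes. This gave 45 of 19088 gene rows, and 75 of 24343 rows of the deposited transcript table.

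SR proteins mostly bind exonic enhancers and promote the use of an exon, while many hnRNP proteins bind silencers and oppose it. PTBP, MBNL, CELF and RBFOX proteins act by position along the pre-mRNA and drive switches of splicing pattern during the development of muscle, nerve and connective tissue, and ESRP proteins maintain the epithelial pattern. Many of these genes control their own output through transcript forms with a premature stop codon, which nonsense-mediated decay removes.

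RNA was sequenced from primary cells of the nucleus pulposus, the soft centre of the intervertebral disc, from SD rats. The rShh group of 3 samples received recombinant Sonic hedgehog, a secreted ligand that activates Hedgehog signalling, at 200 ng/ml in DMSO for 48 h, and the Control group of 3 samples received DMSO alone for 48 h. Both groups were grown in DMEM/F12 with fetal bovine serum. The labels used here state neither the number, age and sex of the animals nor whether samples came from separate cultures, so the p-values measure a spread between samples that may be technical.

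Library totals were 65116846 to 70031072 counts in the rShh libraries and 50758195 to 55501124 in the Control libraries. Mitochondrial genes took 3.25% to 3.36% of counts in rShh libraries and 1.97% to 2.28% in Control libraries. The 3 genes Ddx3, Eif2s3y and Kdm5d of chromosome Y had 2235 to 7120 counts in the rShh libraries and 0 in each Control library. The effects of the treatment and of a difference in the animals' sex cannot be told apart in any comparison below. Nucleus pulposus markers were measured in both groups but moved in opposite directions. Acan (log2 change 3.37), Hif1a (1.69) and Sox9 were higher, and Fgf10 (-1.87), Cd24, Pax1, Krt8 and Col2a1 were lower. Low markers were Krt8 (2.11 CPM in rShh, 12.6 CPM in Control), Sox9 (4.67 CPM in rShh, 2.34 CPM in Control) and Col2a1 (0.107 CPM in rShh, 1.61 CPM in Control), where CPM is the count scaled to library size by the TMM method. Krt19, Tbxt, Car12 and Car3 were not analysed here. In bulk RNA, fewer cells of a type and less RNA per cell cannot be told apart.

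Splicing regulators were more often higher than lower in cells given rShh. Of the 45 genes, 42 had enough counts to be tested, of which 24 were higher, 9 were lower and 9 failed the test (edgeR quasi-likelihood test, adjusted p below 0.05). This is 57.1% higher and 21.4% lower, against 31.5% higher and 28.8% lower of the 14775 genes tested, among which 60.3% changed in either direction. The median log2 change was 0.31 over the 42 genes and 0.01 over all genes tested. For 25 of the 42 the rShh samples all lay above the Control samples, and for 10 they all lay below, where 35.7% and 32.5% of all genes tested did so. Most changes were small: in a test against a change of 1.5-fold, 6 members passed as higher (Mbnl1, Mbnl2, Mbnl3, Ptbp3, Celf3 and Hnrnph2) and 2 as lower (Srsf9 and Celf5), where 14.7% and 7.38% of all genes did.

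The 3 untested genes had 0 counts in every rShh library, which allows up to 0.0431 to 0.0465 CPM, and counts in a single Control library each. They were Celf4 (3 counts), Esrp1 (6 counts) and Rbfox1 (11 counts), known as regulators of neurons, of epithelia, and of muscle and neurons in that order.

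**Figure D1:**
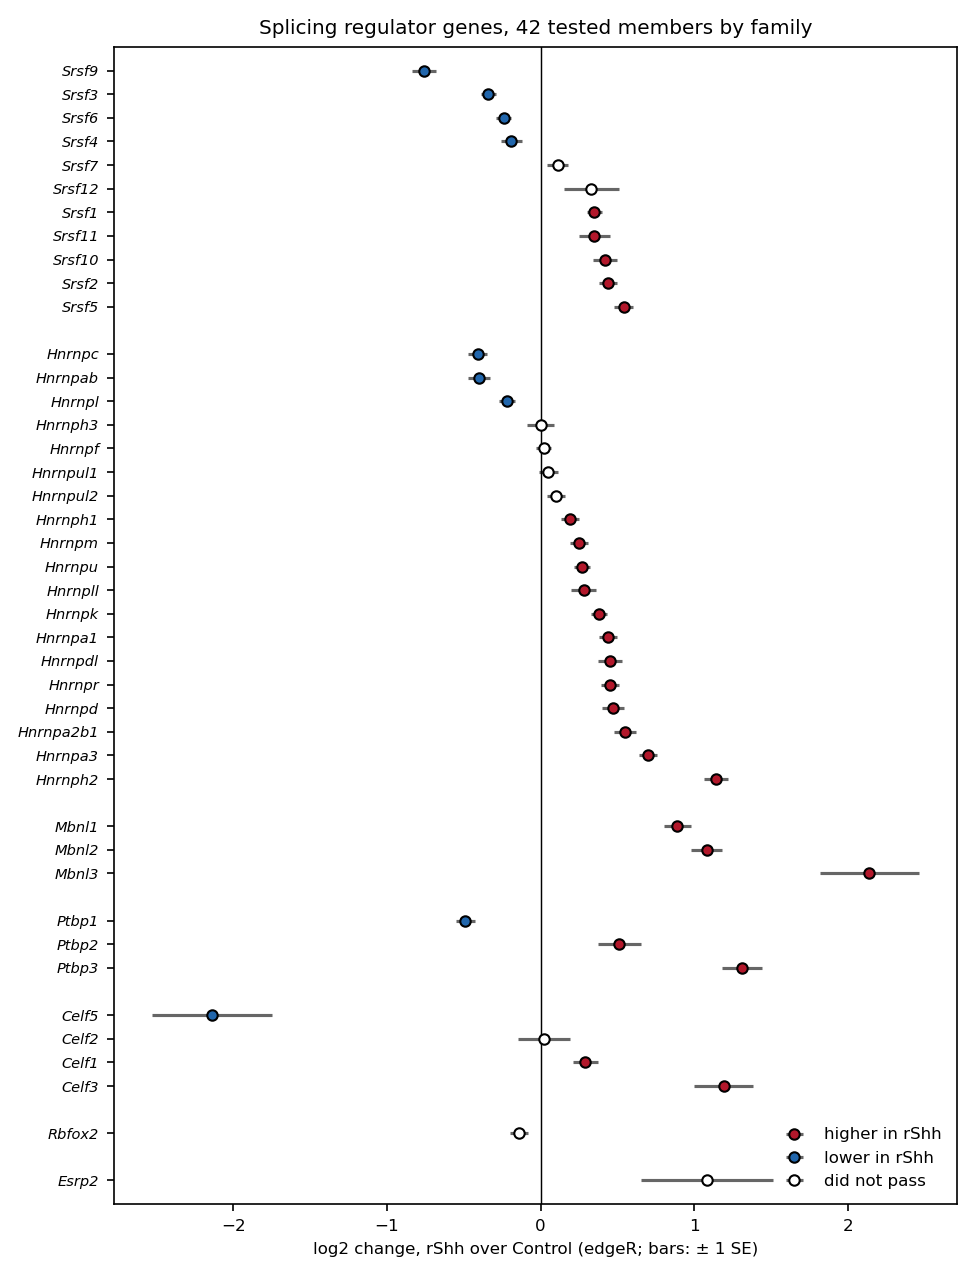
Log2 change (rShh over Control, edgeR, horizontal axis) with 1 SE for the 42 tested genes, grouped by family from top to bottom. Red points are higher in rShh (24), blue points are lower (9) and white points did not pass (9). All 3 Mbnl genes lie to the right of 0, while each of the Srsf, Hnrnp, Ptbp and Celf families has genes on both sides.

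Summed over a family, FPKM (fragments scaled to length and to library size) gives an approximate amount of each kind of regulator mRNA. The gene FPKM can understate a gene with several transcripts. In rShh samples Srsf3 had a mean of 25.05 FPKM as a gene, and its protein-coding transcript alone had 33.7 FPKM. Sums, shares and ratios of gene FPKM are therefore only roughly comparable between genes. The Mbnl family summed to 148, 157 and 151 FPKM in rShh samples and 88.0, 79.4 and 64.4 FPKM in Control samples, a ratio of 1.97. The Hnrnp family made up most of the total, with 1627 ± 23.4 FPKM in rShh samples and 1327 ± 52.7 FPKM in Control samples (SD, n = 3 each), a ratio of 1.23. The Srsf family summed to 448 ± 13.4 FPKM in rShh samples and 396 ± 7.12 FPKM in Control samples, and the Celf family to 29.4 ± 2.27 FPKM in rShh samples and 23.8 ± 1.29 FPKM in Control samples.

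The Ptbp sum was lower with rShh, at 79.0 ± 1.37 FPKM in rShh samples and 93.1 ± 3.49 FPKM in Control samples, a ratio of 0.849. In each of these 5 families, and in the small Rbfox (17.1 FPKM in rShh, 18.8 FPKM in Control) and Esrp sums (0.304 FPKM in rShh, 0.149 FPKM in Control), the groups did not overlap. Over all 45 genes the sum was 2353 ± 42.5 FPKM in rShh samples and 1936 ± 69.7 FPKM in Control samples.

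**Figure D2:**
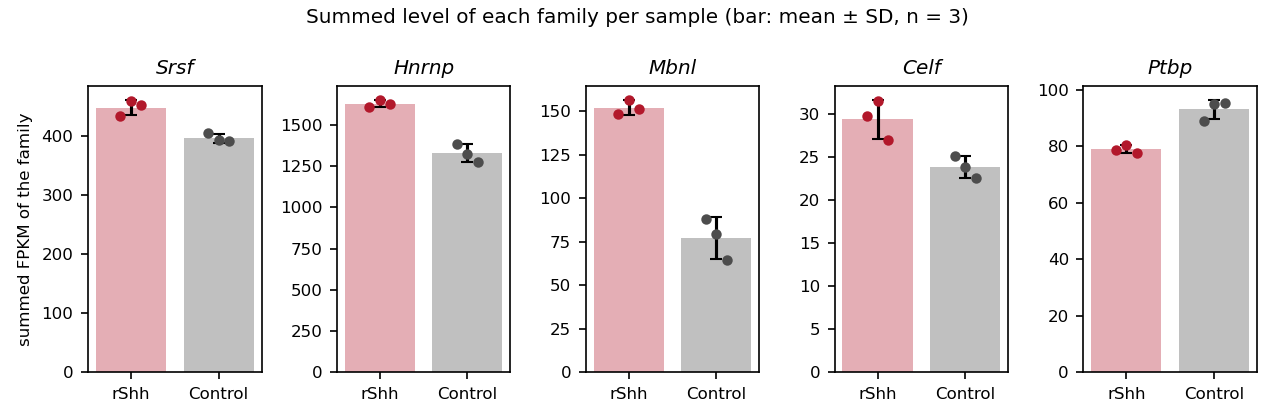
Summed FPKM of 5 families (vertical axis, from 0) in each sample, with bars for the group mean ± SD (n = 3). The Mbnl bar is 1.97 times as high in rShh as in Control, and Ptbp is the 1 family of the 5 that is lower in rShh (0.849 times).

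Among the 11 SR protein genes, 5 were higher (45.5%), 4 lower (36.4%) and 2 not called, against 31.5% and 28.8% of all genes tested, at a median log2 change of 0.33. The higher ones were Srsf5, Srsf2, Srsf10, Srsf1 and Srsf11, and the lower ones Srsf9, Srsf3, Srsf6 and Srsf4. Srsf5 was the most abundant, with 137 ± 5.52 FPKM in rShh samples and 93.1 ± 6.66 FPKM in Control samples. Its promoter is shown because it is 1 of the 2 member promoters that hold the letters GACCACCCA, a binding motif of the GLI factors through which Hedgehog signalling acts. The 200 bases run along the plus strand at chr6:106336556-106336755 of GRCr8 (RefSeq), with the motif in capitals, beginning 169 bases before the start of the gene.

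Srsf5: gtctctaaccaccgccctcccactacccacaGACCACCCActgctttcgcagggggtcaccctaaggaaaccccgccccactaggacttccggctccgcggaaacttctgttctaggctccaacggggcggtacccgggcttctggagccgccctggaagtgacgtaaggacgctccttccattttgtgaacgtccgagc

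Srsf5 (chromosome 6, 104611026 to 104615302 in the deposited table, whose build is not given in the sources used here) had 186, 192 and 196 CPM in rShh samples and 140.3, 125 and 129 CPM in Control samples. Each rShh sample lay above each Control sample, by a log2 change of 0.54 (SE 0.06, edgeR adjusted p = 2.69e-05).

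Srsf9, a small SR protein close to Srsf1 in its RNA-binding domains, moved the other way and furthest in the family. It had 46.5, 43.6 and 41.9 CPM in rShh samples and 67.4, 75.7 and 80.5 CPM in Control samples (log2 change -0.76, SE 0.08, edgeR adjusted p = 1.94e-05). The groups were well apart, and the Control mean was 1.69 times the rShh mean. Within the same samples the FPKM ratio of Srsf5 to Srsf9 was 4.05 ± 0.315 in rShh and 1.65 ± 0.246 in Control (SD, n = 3 each), and the share of Srsf9 in the family sum was 7.54% with rShh and 14.4% in Control.

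Srsf1, the founding SR protein, had 191, 193 and 189 CPM in rShh samples and 153, 146 and 149 CPM in Control samples (log2 change 0.35, edgeR adjusted p = 0.000141). Srsf2, a component of nuclear speckles, had 170.4, 169 and 171 CPM in rShh samples and 118, 136 and 121 CPM in Control samples (log2 change 0.44, edgeR adjusted p = 0.000148). In both genes the rShh samples lay close together and above the Control samples. Srsf10, an SR protein that represses splicing when dephosphorylated, had 40.5, 43.3 and 38.5 CPM in rShh samples and 33.2, 28.9 and 29.1 CPM in Control samples. Srsf11 had 72.2, 87.8 and 75.9 CPM in rShh samples and 62.5, 67.9 and 54.7 CPM in Control samples.

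Srsf10 and Srsf11 were thus also without overlap, at log2 changes of 0.42 (edgeR adjusted p = 0.00145) and 0.35 (edgeR adjusted p = 0.0092). Srsf6 was lower, with 112, 109 and 111 CPM in rShh samples and 126, 134 and 130.4 CPM in Control samples (log2 change -0.24, edgeR adjusted p = 0.00294). Srsf4, a longer relative of Srsf6, was lower with a log2 change of -0.19 (edgeR adjusted p = 0.036). The log2 changes of Srsf7 and Srsf12 were 0.11 and 0.33, and their groups overlapped.

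Srsf3, the smallest SR protein, is described here at the gene level and below by transcript. It lies on chromosome 20 at 6288267 to 6296790 in the deposited table and had 161, 159.9 and 152 CPM in rShh samples and 208, 194 and 195 CPM in Control samples. The groups did not overlap, and the log2 change was -0.34 (SE 0.05, edgeR adjusted p = 0.000385). RefSeq lists 10 pseudogenes named after Srsf3, so reads shared with copies make its level uncertain. Its promoter is shown as the counterpart of the promoters of members that were higher, at chr20:7093465-7093584 of GRCr8 (RefSeq, plus strand), with a CCAAT box on the other strand, ATTGG as printed, in capitals, beginning 89 bases before the gene start.

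Srsf3: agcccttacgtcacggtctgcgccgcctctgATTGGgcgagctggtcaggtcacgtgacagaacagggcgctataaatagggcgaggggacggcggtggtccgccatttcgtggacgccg

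Of the 19 hnRNP genes 12 were higher (63.2%), 3 lower (15.8%) and 4 not called, against 31.5% higher and 28.8% lower of all genes tested, with a median log2 change of 0.27. Hnrnph2, which binds runs of G with its paralogues Hnrnph1 and Hnrnpf, changed most. It had 102, 96.9 and 90.1 CPM in rShh samples and 47.6, 41.7 and 41.9 CPM in Control samples, and the groups were far apart (log2 change 1.14, SE 0.08, edgeR adjusted p = 8.58e-07). The gene lies on chromosome X at 105419285 to 105422861. Of 518 genes tested on chromosome X, 40.2% were higher and 18.1% lower, with a median log2 change of 0.27, and the part of this in the change of Hnrnph2 was not tested. Its promoter, at chrX:102074029-102074248 of GRCr8 (RefSeq, plus strand), is shown with its 2 CCAAT boxes in capitals, which begin 207 and 176 bases before the start of the gene.

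Hnrnph2: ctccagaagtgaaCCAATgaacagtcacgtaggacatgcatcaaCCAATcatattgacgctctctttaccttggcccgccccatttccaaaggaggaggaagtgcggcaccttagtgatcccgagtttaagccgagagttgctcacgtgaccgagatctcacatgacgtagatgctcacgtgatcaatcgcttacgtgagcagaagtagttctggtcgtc

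Hnrnph1 had a smaller log2 change, with 169, 176 and 176 CPM in rShh samples and 163, 152 and 140.0 CPM in Control samples (log2 change 0.19, edgeR adjusted p = 0.0217). Per length, the FPKM ratio of Hnrnph2 to Hnrnph1 was 0.995 ± 0.0836 in rShh and 0.515 ± 0.0229 in Control (SD, n = 3 each). By gene FPKM, Hnrnph2 was thus about level with Hnrnph1 in rShh samples and well below it in Control samples. The transcripts of Hnrnph1 had means of 29.8, 30.7 and 13.2 FPKM in rShh samples, and the only transcript of Hnrnph2 had 51.5 FPKM. Summed by transcript, Hnrnph2 therefore lay below Hnrnph1 in rShh samples as well. Hnrnpf had 299.9, 289 and 286 CPM in rShh samples and 297, 279 and 288 CPM in Control samples, which overlapped, and Hnrnph3 was also without a change that passed.

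The hnRNP A/B proteins coat nascent RNA and often repress exons through silencer elements, as worked out for Hnrnpa1. Hnrnpa2b1, which had the highest FPKM of all 45 genes in both groups (258 ± 6.74 in rShh and 175 ± 17.3 in Control), had 325, 320.2 and 334 CPM in rShh samples and 241, 226 and 201 CPM in Control samples (log2 change 0.55, edgeR adjusted p = 5.41e-05). Hnrnpa3 had 339.5, 339.9 and 347 CPM in rShh samples and 228, 208 and 195 CPM in Control samples (log2 change 0.70, SE 0.06, edgeR adjusted p = 5.54e-06). Hnrnpa1 had 340.0, 344 and 339 CPM in rShh samples and 270.2, 248 and 238 CPM in Control samples (log2 change 0.44, edgeR adjusted p = 8.54e-05). In all 3 genes the rShh samples lay close together and above every Control sample. RefSeq lists 51 pseudogenes named after Hnrnpa1, so that its level in particular may hold reads of copies.

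Hnrnpab, a relative in the same group, was lower with rShh (log2 change -0.40, edgeR adjusted p = 0.000389), at 209, 227 and 202 CPM in rShh samples and 277, 265 and 302 CPM in Control samples. It held rank 7 by gene FPKM in rShh samples and rank 3 in Control samples, and the gene FPKM ratio of Hnrnpa3 to Hnrnpab was 2.45 ± 0.167 in rShh and 1.14 ± 0.141 in Control. In Control samples the transcripts of Hnrnpab had means of 77.0 and 88.6 FPKM, together above the 154 FPKM of Hnrnpa3. The order of these genes in Control samples thus depends on the FPKM used. Hnrnpc, which packages nascent RNA through runs of U, was lower as well, with 102, 117 and 105 CPM in rShh samples and 145, 142 and 144 CPM in Control samples (log2 change -0.41, edgeR adjusted p = 0.000249). The last lower gene of the family was Hnrnpl, which binds CA repeats (log2 change -0.22, edgeR adjusted p = 0.00348). Its paralogue Hnrnpll was higher, with 38.3 to 40.8 CPM in rShh samples and 30.6 to 35.1 CPM in Control samples (log2 change 0.28, edgeR adjusted p = 0.00878).

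Of the remaining hnRNP genes, Hnrnpk, which binds runs of C, had 541, 536 and 534 CPM in rShh samples and 420.4, 428 and 389 CPM in Control samples (log2 change 0.38, edgeR adjusted p = 0.000107). Hnrnpd, also known as AUF1 for its binding to AU-rich elements, had 103, 95.2 and 96.2 CPM in rShh samples and 66.3, 71.6 and 74.7 CPM in Control samples (log2 change 0.47, edgeR adjusted p = 0.000146). Hnrnpr had 69.1, 70.2 and 70.0 CPM in rShh samples and 52.4, 52.4 and 48.1 CPM in Control samples (log2 change 0.45, edgeR adjusted p = 0.000135). These genes, with Hnrnpdl, Hnrnpu and Hnrnpm, formed a group of higher members with log2 changes of 0.25 to 0.47 and no overlap between groups. Hnrnpul1 and Hnrnpul2 overlapped, at log2 changes of 0.05 and 0.10.

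**Figure D3:**
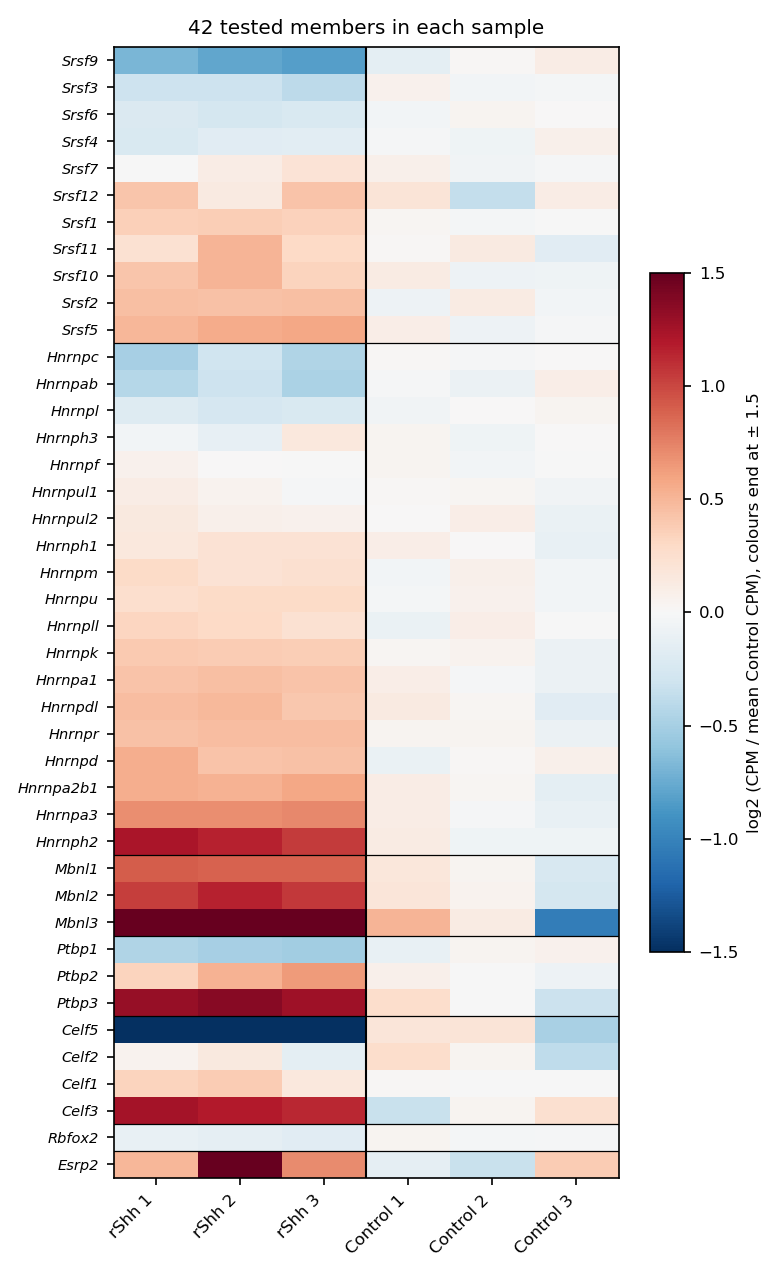
Each row is a tested gene and each column a sample, coloured by log2 of its CPM over the mean Control CPM (red above, blue below, colours ending at 1.5 in either direction). The 3 rShh columns resemble each other in most rows. Mbnl3, Ptbp3, Celf3, Hnrnph2 and Mbnl2 are the darkest red rows in rShh that reach across all 3 samples, and Celf5 the darkest blue.

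In the Ptbp family the paralogues moved apart. Ptbp1, which represses neuronal exons in non-neuronal cells, had 281, 272 and 266 CPM in rShh samples and 355, 394 and 402 CPM in Control samples (log2 change -0.49, SE 0.06, edgeR adjusted p = 4.65e-05). Ptbp3, a paralogue first described in blood cells, had 51.2, 53.3 and 49.8 CPM in rShh samples and 24.8, 20.6 and 16.6 CPM in Control samples (log2 change 1.31, SE 0.13, edgeR adjusted p = 1.08e-05). Both were separate between the groups, in opposite directions. Per length, Ptbp3 made up 18.9% ± 0.506 of the family's FPKM in rShh samples and 6.46% ± 1.59 in Control samples, and Ptbp1 76.9% ± 0.797 in rShh samples and 91.0% ± 1.84 in Control samples (SD, n = 3 each).

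Ptbp2, the neuronal paralogue, was low in both groups, with 6.75, 7.69 and 8.29 CPM in rShh samples and 5.62, 5.33 and 5.05 CPM in Control samples. It was higher by a log2 change of 0.51 (SE 0.14, edgeR adjusted p = 0.01), a call that was lost without rShh replicate 3 (edgeR adjusted p = 0.0505). The FPKM ratio of Ptbp3 to Ptbp1 was 0.246 ± 0.00871 in rShh and 0.0712 ± 0.0189 in Control, and Ptbp1 remained the main member in all 6 samples.

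All 3 muscleblind genes, whose proteins are sequestered by repeat RNA in myotonic dystrophy, were higher. The proteins of Mbnl1 and Mbnl2 promote adult splicing patterns. Mbnl1 (chromosome 2, 150756185 to 150869690) had 191, 189.7 and 189 CPM in rShh samples and 115, 106 and 86.8 CPM in Control samples (log2 change 0.89, SE 0.09, edgeR adjusted p = 1.51e-05). Mbnl2 (chromosome 15, 105640097 to 105797932) had 273, 297 and 277 CPM in rShh samples and 150.2, 138 and 110.3 CPM in Control samples (log2 change 1.08, SE 0.10, edgeR adjusted p = 7.44e-06). In both genes even the lowest rShh sample lay far above the highest Control sample. One promoter of Mbnl2 is shown, at chr15:103792068-103792187 of GRCr8 (RefSeq, plus strand). A CCAAT box on the other strand, ATTGG as printed, is in capitals and begins 66 bases before the gene start. Another CCAAT of this promoter begins 237 bases before the gene start, outside the printed bases.

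Mbnl2: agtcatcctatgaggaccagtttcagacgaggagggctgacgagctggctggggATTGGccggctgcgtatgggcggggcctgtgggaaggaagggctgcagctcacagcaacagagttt

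Mbnl3, which is linked to the undifferentiated state in muscle cells, was the least abundant and changed most, with 5.03, 5.62 and 5.51 CPM in rShh samples and 1.73, 1.32 and 0.591 CPM in Control samples. Its log2 change of 2.14 (SE 0.32, edgeR adjusted p = 0.000225) was the highest of the 42 tested genes, and it lies, like Hnrnph2, on chromosome X, where the median log2 change was 0.27. On the log2(FPKM + 1) scale, which understates changes of low genes, the log2 change of Mbnl3 was 1.12 (limma). Per length the family remained mostly Mbnl1, which held 64.4% ± 1.10 of its FPKM in rShh samples and 67.9% ± 0.515 in Control samples, while Mbnl3 held 1.48% ± 0.0774 in rShh samples and 0.629% ± 0.231 in Control samples.

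CELF proteins bind GU-rich RNA and oppose muscleblind proteins on many exons. Celf1, the broadly expressed member, had 50.2, 51.9 and 44.4 CPM in rShh samples and 40.3, 39.6 and 39.6 CPM in Control samples (log2 change 0.29, SE 0.08, edgeR adjusted p = 0.00648). The FPKM ratio of Mbnl1 to Celf1 was 4.78 ± 0.373 in rShh and 3.14 ± 0.415 in Control. Celf2 had 10.0, 10.7 and 8.77 CPM in rShh samples and 11.7, 9.95 and 7.47 CPM in Control samples, which overlapped (log2 change 0.02, edgeR adjusted p = 0.93).

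The CELF genes best known from neurons were low and moved in opposite directions. Celf3 had 6.31, 6.03 and 5.79 CPM in rShh samples and 2.10, 2.72 and 3.13 CPM in Control samples (log2 change 1.19, SE 0.19, edgeR adjusted p = 0.000309). Celf5 had 0.993, 0.359 and 0.687 CPM in rShh samples and 3.41, 3.45 and 2.15 CPM in Control samples (log2 change -2.14, SE 0.39, edgeR adjusted p = 0.000768). Neither gene's groups overlapped. Of 6 neuron markers, Rbfox3, Elavl3 and Syp were not analysed here and the other 3 summed to 19.4 to 19.7 CPM in rShh samples and 130 to 173 CPM in Control samples. Nearly all of this was Tubb3, which had 19.3 ± 0.334 CPM in rShh samples and 155 ± 22.8 CPM in Control samples. The part of neuron-like cells in the values of Celf3 and Celf5 was not tested.

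Rbfox2, the RBFOX protein of non-neuronal tissues, had 50.1, 49.3 and 48.2 CPM in rShh samples and 55.8, 53.0 and 53.6 CPM in Control samples. The rShh samples lay below the Control samples, by a log2 change of -0.14 that did not pass (SE 0.06, edgeR adjusted p = 0.0735). With upper-quartile scaling the log2 change was -0.21 and passed (edgeR adjusted p = 0.0143). Esrp2, which promotes epithelial splicing, was low, with 0.962, 2.24 and 1.12 CPM in rShh samples and 0.619, 0.540 and 0.887 CPM in Control samples. The groups did not overlap, but the log2 change of 1.08 (SE 0.43) did not pass (edgeR adjusted p = 0.0512). It passed without rShh replicate 1 (edgeR adjusted p = 0.0400), without Control replicate 3 (0.0431), with a minimum count of 50 (0.0359) and with DESeq2 (adjusted p = 0.0402). The epithelial markers summed to 0.0431 to 0.109 CPM in rShh samples and 0 to 0.301 CPM in Control samples.

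**Figure D4:**
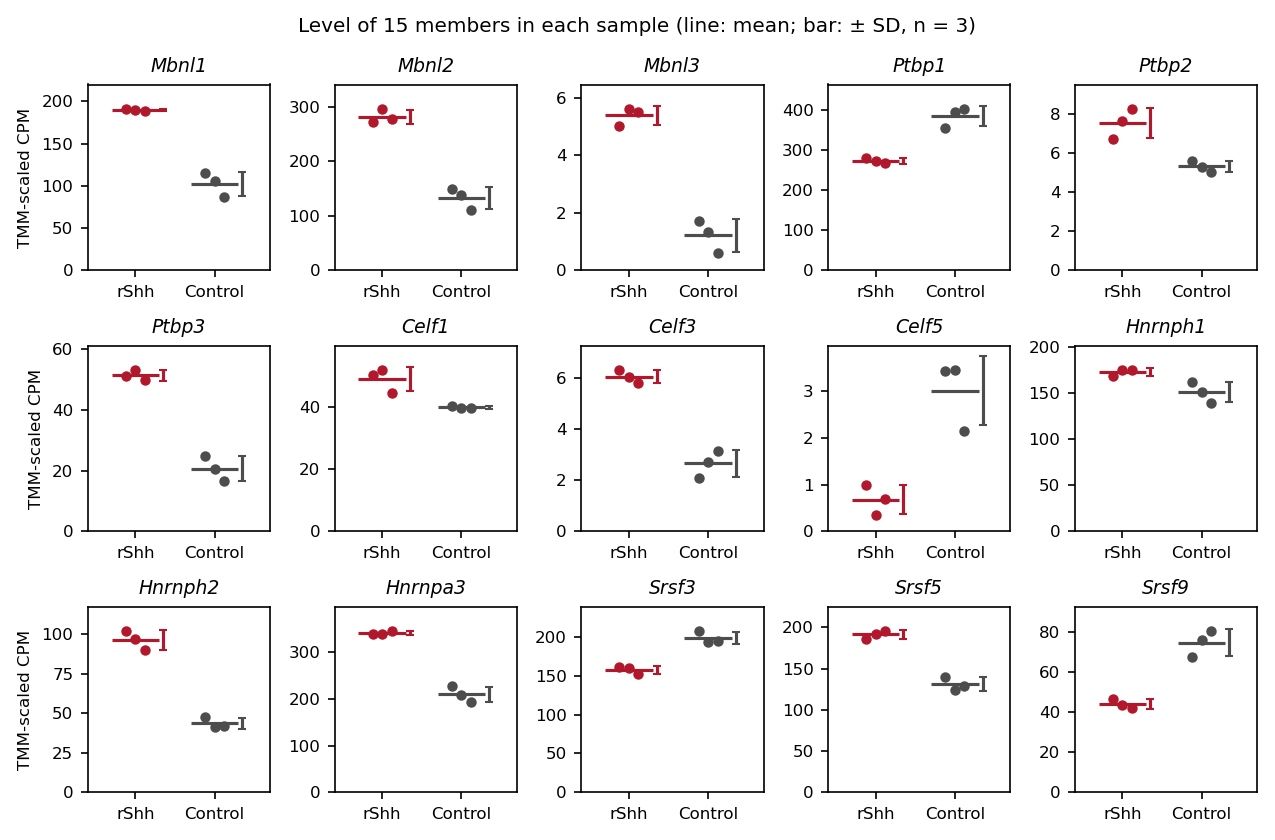
TMM-scaled CPM (vertical axis, from 0) of 15 genes in each sample, with lines for group means and bars for SD (n = 3). In each of the 15 panels the groups do not overlap. The paralogues Ptbp1 and Ptbp3 lie on opposite sides, as do Celf3 and Celf5, and Srsf5 and Srsf9.

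The deposited transcript table holds 1 transcript for 27 of the 45 genes and at least 2 for 18. Of the 75 transcripts, 70 were tested for level with edgeR. Among them 28 were higher, 9 lower and 33 did not pass, against 23.8% higher and 21.3% lower of 18180 transcripts tested. In simulated transcript counts this level test recovered 2% of 1.5-fold and 16% of 2-fold changes. A transcript level that did not pass is therefore not shown to be unchanged. The sources used here do not say how reads common to several transcripts were divided, and the error of that division is not in the p-values. Whether a transcript's share of its gene changed was tested for 46 transcripts of the 18 genes with limma's diffSplice on voom-transformed counts, which sets a transcript's change against that of the gene's other transcripts. It called 1 as higher and 2 as lower, or 3 of 46, against 5.51% of the 6096 transcripts tested. On simulated counts 40.5% of the calls of diffSplice were false, more than for the other share tests, and its calls are therefore given beside theirs. Testing the log2 ratio of each transcript to the rest of its gene with limma called 0 of the 46, with 7 at an unadjusted p below 0.05, and 1.12% of the 6096. In the simulation this limma test recovered 0% of 2-fold and 16% of 4-fold changes, so the lack of calls does not show that shares were unchanged. For 15 of the 46 the shares did not overlap between the groups, where 19.7% of the 6096 did so, and in a gene with 2 transcripts both shares carry the same comparison.

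Of the 3 calls, 2 were in Srsf3. Its transcript typed in the deposited table as a target of nonsense-mediated decay (ENSRNOT00000092663, 7 exons, 1917 nt) made up 15.1%, 9.11% and 13.4% of the gene's counts in rShh samples and 21.2%, 25.9% and 25.6% in Control samples. Every rShh share lay below every Control share, by 11.7 percentage points between the means. A two-sided exact permutation test gave p = 0.1, the smallest that 3 samples against 3 allow. Any such full separation gives this value, so the test adds nothing to it. Against the gene's other transcripts, the log2 change of this transcript was -1.16 (SE 0.17, diffSplice adjusted p = 0.000675), and the limma adjusted p on log2 ratios was 0.228. In edgeR's diffSpliceDGE, which compares a transcript with its whole gene, the log2 change was -0.66 (adjusted p = 0.00621). With each library left out in turn the diffSplice adjusted p ran between 0.000949 and 0.00936.

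The protein-coding transcript of Srsf3 (ENSRNOT00000000627, 6 exons, 2884 nt) made up 72.9%, 77.3% and 69.6% of the counts in rShh samples and 64.5%, 61.1% and 60.7% in Control samples. Its log2 change against the gene's other transcripts was 0.74 (SE 0.15, diffSplice adjusted p = 0.00707). The limma adjusted p on log2 ratios was 0.29, and with edgeR's diffSpliceDGE this call was lost as well, at a log2 change of 0.17. The third transcript, typed as a retained intron, held 14.2% ± 2.60 in rShh samples and 13.7% ± 0.693 in Control samples and did not pass.

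In level, the decay-typed transcript had 19.7 ± 4.91 CPM in rShh samples and 48.0 ± 3.48 CPM in Control samples (SD, n = 3 each, log2 change -1.29, SE 0.19, edgeR adjusted p = 0.0025). The protein-coding transcript had 116 ± 9.14 CPM in rShh samples and 124 ± 9.08 CPM in Control samples, a log2 change of -0.10 that did not pass (SE 0.08, edgeR adjusted p = 0.362). Of the difference of -41.2 CPM in the sum of the 3 transcripts, the decay-typed one accounted for 68.6%, the protein-coding one for 19.5% and the retained intron for 11.9%. As the counts were divided between transcripts, most of the lower gene count of Srsf3 with rShh lay in the decay-typed form. How shared reads were divided is not given in the sources used here, and the error of that division was not tested. Of 74 decay-typed transcripts tested in the whole table, 0 passed as higher and 2 as lower (2.7%) by diffSplice. Their median log2 change against the other transcripts of their genes was 0.28.

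**Figure D5:**
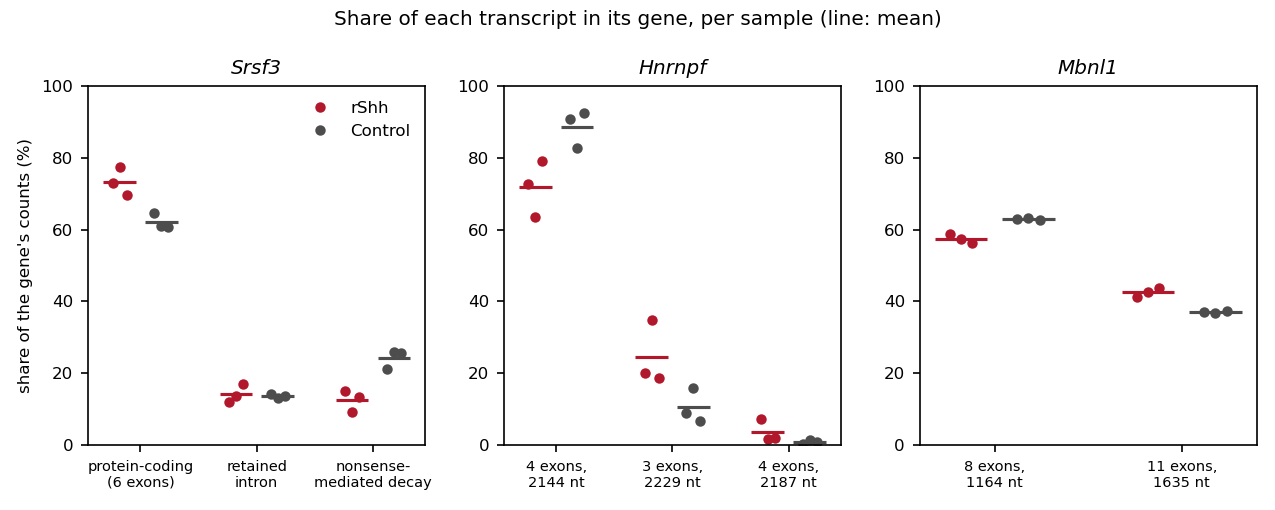
Share of the gene's counts (vertical axis, percent) held by each transcript of Srsf3, Hnrnpf and Mbnl1, in each sample, with lines for group means. In Srsf3 the decay-typed share averages 12.5% in rShh and 24.2% in Control, and the protein-coding share lies on the opposite side. In Mbnl1 the 2 transcripts are separate between groups by a few points, and in Hnrnpf the samples scatter widely.

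The third call was in Hnrnpf, whose gene total did not pass. The transcript ENSRNOT00000083843 (4 exons) held 72.8%, 63.6% and 79.2% in rShh samples and 90.7%, 82.6% and 92.6% in Control samples. Its log2 change against the gene's other transcripts was -1.65 (SE 0.39, diffSplice adjusted p = 0.0207). Its shorter-spanning alternative ENSRNOT00000091765 (3 exons) held 20.0%, 34.8% and 18.7% in rShh samples and 8.96%, 16.0% and 6.62% in Control samples (diffSplice adjusted p = 0.0509). Both were without overlap but scattered within each group. The remaining transcript, ENSRNOT00000019529, held 3.63% ± 3.15 in rShh samples and 0.841% ± 0.528 in Control samples, also without overlap, and did not pass (diffSplice adjusted p = 0.299). The call was lost without rShh replicate 2 (diffSplice adjusted p = 0.0613), without Control replicate 1 (0.0836) and without Control replicate 3 (0.105). It was also lost in limma on log2 ratios (adjusted p = 0.298) and in edgeR's diffSpliceDGE, at a log2 change of -0.21.

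No other share passed. In Hnrnpdl, a relative of Hnrnpd, the transcript ENSRNOT00000079767 held 55.8% ± 1.7 in rShh samples and 45.8% ± 5.47 in Control samples (diffSplice adjusted p = 0.0578), and it was higher in level (log2 change 0.74, edgeR adjusted p = 0.000131). In Hnrnpk, the transcript ENSRNOT00000025916 held 73.7% ± 0.891 in rShh samples and 69.5% ± 3.07 in Control samples (diffSplice adjusted p = 0.0877). In Hnrnph1, ENSRNOT00000067188 held 42% ± 4.99 in rShh samples and 28.3% ± 10.3 in Control samples, with overlap (diffSplice adjusted p = 0.0607). Its transcript ENSRNOT00000059190 held 39.4% ± 2.27 in rShh samples and 49.0% ± 4.56 in Control samples (diffSplice adjusted p = 0.25), and ENSRNOT00000078505 held 18.5% ± 3.35 in rShh samples and 22.7% ± 6.66 in Control samples (diffSplice adjusted p = 0.501). In Rbfox2, ENSRNOT00000066431 held 56.0% ± 3.19 in rShh samples and 63.2% ± 5.10 in Control samples (diffSplice adjusted p = 0.116), and it was lower in level (log2 change -0.32, edgeR adjusted p = 0.0214), while the gene total did not pass. Hnrnpdl, Hnrnpk and Rbfox2 have 2 transcripts each in the table, and the other one (ENSRNOT00000003106, ENSRNOT00000025980 and ENSRNOT00000090370) held the rest.

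Mbnl1, chosen for its transcripts after their values were seen, had a longer form of 11 exons (ENSRNOT00000088461) with 41.2%, 42.7% and 43.6% in rShh samples and 37.1%, 36.8% and 37.2% in Control samples. The groups did not overlap, but the change in share did not pass (log2 change 0.33 against the gene's other transcript, SE 0.14, diffSplice adjusted p = 0.22). In level the 11-exon form had 80.7 ± 1.67 CPM in rShh samples and 37.9 ± 5.24 CPM in Control samples (log2 change 1.09, edgeR adjusted p = 0.000519). The 8-exon form (ENSRNOT00000036808) had 109 ± 3.01 CPM in rShh samples and 64.5 ± 9.14 CPM in Control samples (log2 change 0.76, edgeR adjusted p = 0.00219), so both forms were higher. The 2 main transcripts of Ptbp1 were both lower, at log2 changes of -0.47 and -0.52, with shares of 54.3% and 45% in rShh samples and 53.5% and 45.8% in Control samples.

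Other genes of splicing were counted from lists made for this comparison. Of 56 tested regulators outside the 7 families, 29 were higher (51.8%), 15 lower (26.8%) and 12 not called, at a median log2 change of 0.21. Among all genes tested 31.5% were higher and 28.8% lower, so the lower share was near the background. Pcbp4, a poly(C)-binding relative of Hnrnpk, had 66.0 ± 0.414 CPM in rShh samples and 159 ± 12.8 CPM in Control samples (log2 change -1.27, edgeR adjusted p = 1.46e-07). Luc7l2, a U1-associated factor, and the cold-inducible Rbm3 were higher, at log2 changes of 0.80 and 0.64.

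Among 14 tested genes of kinases, transport factors and SR-related proteins, 9 were higher (64.3%), 2 lower (14.3%) and 3 not called, at a median log2 change of 0.37, against the same 31.5% and 28.8%. The SR-related proteins Ppig and Pnn and the kinase Prpf4b led this list, at log2 changes of 1.14, 1.10 and 0.97. The kinases Srpk2 and Clk1 were higher by less, at 0.33 and 0.29, and Srpk1, Clk3 and Clk4 did not pass. The 2 lower genes were the kinase Dyrk1b and Akap17a, at log2 changes of -0.84 and -0.42. Of 85 tested core spliceosome genes, 21 were higher, 33 lower and 31 not called, at a median log2 change of -0.11. Among its members with the smallest p, Sf3b1 and Prpf39 were higher, at log2 changes of 0.92 and 1.14. The core list thus had 24.7% higher and 38.8% lower genes, where the 7 families had 57.1% and 21.4% and all genes 31.5% and 28.8%, and the difference between the lists was not tested.

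Markers of dividing cells moved with these results. All 14 tested were higher, led by Cenpf, Prc1 and Rrm2 at log2 changes of 3.20, 2.5 and 2.46, and their summed level was 828 to 846 CPM in rShh samples and 200 to 206 CPM in Control samples. Their part in the levels of the splicing regulators was not tested. Of 9 tested nucleus pulposus markers 3 were higher and 5 lower, of 5 annulus and tendon markers 2 and 3, and of 4 chondrocyte markers 0 and 2. Thbs4 was higher (log2 change 6.08), Col1a1 (-1.10), Fmod (-3.02), Col9a1 (-3.90) and Matn3 (-1.68) were lower, and Comp (-0.17) did not pass. Among 3 skeletal muscle markers Des was higher (log2 change 2.62) and Acta1 (0.18) and Myh3 (-0.08) did not pass, with a summed level of 85.8 to 108 CPM in rShh samples and 57.1 to 93.4 CPM in Control samples, and of 2 neuron markers Tubb3 was lower (-3.00) and Snap25 (1.76) did not pass. The macrophage markers Cd14 (0.23), Csf1r (1.18) and Cd68 (0.16) and the endothelial marker Vwf (0.33) did not pass, and no epithelial or erythroid marker had enough counts. The macrophage markers summed to 12.9 to 15.5 CPM in rShh samples and 10.9 to 14.1 CPM in Control samples, and the endothelial ones to 0.168 to 0.403 CPM in rShh samples and 0 to 0.583 CPM in Control samples.

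Promoters of 38 of the 45 genes, in 43 entries, were found in the RefSeq table (GRCr8), as 250 bases before to 50 bases after the gene start. None of the 3 motifs searched contains another. On either strand, GACCACCCA was in 2 of the 43 (Srsf5 and Celf1), or 4.65%, and in 0.385% of 33469 promoters. The E-box CACGTG was in 6 (14%) against 6.42%, and CCAAT in 28 (65.1%) against 37.5%. Among the 11397 promoters of genes tested here these shares were 0.325%, 9.06% and 37.2%. Members with a CCAAT box included higher genes (Hnrnph2, Hnrnpa3, Mbnl2) and lower ones (Srsf3, Ptbp1, Hnrnpc). These matches describe the letters and do not show that a factor binds.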

How the data were processed

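RNA sequencing of 6 samples was used. The authors deposited a gene table and a transcript table, each with whole-number counts that are not normalized and with FPKM values (per the file headers), which are relative to length and library size. The submitters' processing notes name StringTie 1.3.4d, HISAT2 2.0.4, cutadapt 1.9, edgeR and DESeq2. The role of each tool, the strand setting and the genome build were not given there.

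Members and gene lists were chosen with earlier results of these data known. Counts were tested with edgeR 4.0.16 in R 4.3.3 (filterByExpr, minimum count 10, TMM scaling, glmQLFit and glmQLFTest, two-sided, group as the only term). Transcript shares were tested with limma 3.58.1 (voom and diffSplice). Benjamini-Hochberg adjustment ran over all rows tested, with a threshold of 0.05. The test against 1.5-fold was edgeR's glmTreat. The tests were checked on simulated data, where diffSplice made more false calls than the other tests, and a test with limma on log2 ratios was added for this reason. A floor of 3 counts per library is given for genes at 0 and covers counting error only.

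Named with values are all genes of the 5 smaller families, and in Srsf and Hnrnp the 8 with the smallest p and the most abundant one. For transcripts these are the 10 with the smallest p for share and the others of the same genes, and for each list the up to 3 with the smallest p. A gene of the core spliceosome list that this rule takes is not reported here. Other genes were named after their values were seen. The alternatives were DESeq2 1.42.0, limma on log2(FPKM + 1) and log2(FPKM + 0.1), other scalings and filters, each library left out and the replicate number as a block. The test on log2 ratios was chosen after seeing the data. The nonmember lists are splicing regulators, SR protein kinases and transport, core spliceosome and cell type markers.

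Replicates of a group differed by more than sampling noise (chi-square per degree of freedom 10.5 to 50.5), and each was treated as a sample of its own. This spread may be technical and does not show that samples came from separate cultures or animals. Several members have pseudogenes, which can share reads.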

Additional observations from a re-analysis of the deposited data

How the results depend on the processing

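Of the named genes' and transcripts' values under the alternatives, 562 kept their direction and their side of the threshold, 26 lost and 16 gained a call, and 4 changed sign. The 4 were all of Celf2, which was never called (log2 change 0.02): -0.05 with upper-quartile scaling, 0.00 with library size alone, -0.05 without rShh replicate 2 and -0.14 without Control replicate 3 (-0.14 to 0.17 over the libraries left out). Against a change of 1.5-fold, 6 genes were higher and 2 lower, 3258 of all genes changed, and 8 transcripts were higher and 2 lower. The 24 higher and 9 lower genes were otherwise 22 to 25 and 8 to 10. Leaving out 1 library gave 22 to 25 higher and 8 to 9 lower genes, 7838 to 9252 changed genes among all, and 21 to 27 higher and 8 to 11 lower transcripts.

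Shares were less settled: 3 transcripts were called by diffSplice, 1 by diffSpliceDGE, 0 by limma on log2 ratios (7 at an unadjusted p below 0.05) and 2 to 7 with 1 library left out, of which 7 without Control replicate 1 and 5 without Control replicate 3. The cause was not tested. With the replicate number as a block the counts were 24 higher and 8 lower genes, 8440 changed genes among all, 26 higher and 8 lower transcripts and 7 shares. Nothing in the labels makes the numbers pair samples, and deviations of same-numbered samples correlated at -0.08, -0.01 and 0.00. Scaling moved the median of all genes to between -0.05 and 0.01, and dropping the filter to 0.06. At this depth, 0 counts in an rShh library bound Celf4, Esrp1 and Rbfox1 only to 0.0431 to 0.0465 CPM.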
